A study of Mus musculus with 36 samples.

Results

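The COUP-TF genes Nr2f1, Nr2f2 and Nr2f6 encode a small family of nuclear receptors, and their RNA was read here in whole mouse embryos from mothers that drank water, ethanol or nicotine. The members were every array probe that the platform annotation assigns to one of these 3 gene symbols. That rule found 6 of the 45281 probes on the array, 4 for Nr2f2 and 2 for Nr2f6. No probe carries the symbol Nr2f1 in that annotation, so Nr2f1 is not analysed here. The family was chosen by its nicotine minus control values, because Nr2f2 lay lower after nicotine in every pair of embryos with the same replicate number. The nicotine values of the members are therefore a description with no test. Tests are given for what did not enter that choice, namely ethanol against water and a division of the embryos that crosses all 3 groups.

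The animals were male embryos of the inbred strain C57BL/6J, collected whole at 9.5 days post coitum, when the neural tube is closing, the heart beats and the tail bud is growing. Their mothers took 10% (v/v) ethanol, 100 µg/ml freebase nicotine or, for the Control group, water by voluntary drinking from 0.5 to 8.5 days post coitum. Each group held 12 embryos with 1 Illumina bead array per embryo, 36 arrays in all. Litters are not named in the labels, so p-values measure only the spread between these embryos, and whole-embryo RNA cannot tell fewer cells of a type apart from less RNA per cell.

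COUP-TFs are orphan nuclear receptors, meaning that no physiological ligand is settled for them. They bind as dimers to repeats of the half-site AGGTCA and mostly repress transcription, partly by competing with retinoid and thyroid hormone receptors for the same sites. Nr2f2, also called COUP-TFII or ARP-1, is known in the mouse embryo for venous identity of endothelium, for the atria of the heart and for mesenchyme of many organs. Nr2f6, also called EAR2, is a more divergent member with roles described in the brainstem and in lymphocytes.

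In the RefSeq annotation of GRCm38.p6, Nr2f2 lies at chr7:70351946-70366746 and Nr2f6 at chr8:71374118-71381967. The promoter windows of the measured genes are shown as a description, and no link between them and any difference in these data was tested. Each window holds 250 bases before and 50 bases from a RefSeq transcription start on the minus strand, chr7:70366697-70366996 for Nr2f2 and chr8:71381903-71382202 for Nr2f6. The start used for Nr2f2 is the outer end of the gene, and that used for Nr2f6 lies 15 bases inside it. Capitals mark the GC box GGGCGG or its reverse complement CCGCCC, a site of Sp family factors, and no other motif is in capitals.
Nr2f2: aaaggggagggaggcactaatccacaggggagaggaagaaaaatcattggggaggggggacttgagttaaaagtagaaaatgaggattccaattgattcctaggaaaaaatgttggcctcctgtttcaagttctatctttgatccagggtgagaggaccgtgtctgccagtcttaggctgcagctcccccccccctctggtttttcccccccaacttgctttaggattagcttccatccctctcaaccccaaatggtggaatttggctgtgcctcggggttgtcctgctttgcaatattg
Nr2f6: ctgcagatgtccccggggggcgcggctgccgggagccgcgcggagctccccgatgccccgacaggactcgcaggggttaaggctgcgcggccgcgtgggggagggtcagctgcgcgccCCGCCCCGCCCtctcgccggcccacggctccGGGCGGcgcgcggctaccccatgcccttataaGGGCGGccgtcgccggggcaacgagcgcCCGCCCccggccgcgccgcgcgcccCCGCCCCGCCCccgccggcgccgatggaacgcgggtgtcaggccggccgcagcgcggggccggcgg
The Nr2f6 window held 7 GC box matches, some sharing a base with the next one, and the Nr2f2 window held 0. Of 32851 promoter windows in the same RefSeq table, 35.7% held at least 1 GC box on either strand. The Nr2f6 window was 82.7% G and C with 53 CpG dinucleotides, and 99.5% of windows had fewer. The Nr2f2 window was 49.7% G and C with 2 CpG, below the medians of 52.7% and 7 over all windows. The half-site AGGTCA, searched with its reverse complement TGACCT, was in neither window and in 16.3% of all windows. These letter matches describe the windows and show no binding.

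The deposited values are intensities on a linear scale, and a probe was kept for testing where its intensity reached 32 on at least 12 arrays, which 16927 probes did. Of the members, 5 passed. The probe ILMN_2617297 of Nr2f2 lay between 2.41 and 7.26 on all 36 arrays and was left out. ILMN_2695912, also of Nr2f2, reached 32 on 7 Control, 4 Ethanol and 4 Nicotine arrays. It sits at the edge of that minimum and is the weakest reading of the gene. Control gave the most of these arrays, and without them the probe would not have been kept. The filter can therefore favour differences below control for this probe. ILMN_3076625 reached 32 on all 12 Control and all 12 Ethanol arrays and on 9 Nicotine arrays, and the other members did so on all 36. Intensities of different probes are not set against each other here, since each probe has its own brightness.

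The embryos fell into sets that do not follow the drink. Across groups, deviations from the group mean correlated at 0.474 on average between different numbers of 1 to 6 or of 7 to 12. Between these sets the average was -0.489. Principal component 1 of all kept probes held 48.1% of the variance. The labels do not say what the numbers stand for. Embryos with the same number, which always share a set, had correlations of 0.243 or more. Their average was 0.589, against the 0.474 of different numbers within a set. The embryos numbered 3 also held outliers in tissue markers, with a summed placental and maternal marker intensity of 42547 in Control 3 against at most 4565 elsewhere, and a summed atrial marker intensity of 238 in Nicotine 3 against at least 9495 elsewhere. For that reason some member values and calls are also given without number 3. Medians, pair counts and summed intensities of the marker lists are given with it.

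Nr2f2 was read best by ILMN_3163196. Its intensity was 201 at the lowest, 331 at the median and 461 at the highest in Control embryos. In Ethanol embryos the same 3 values were 188, 328 and 465. In Nicotine embryos they were 122, 261 and 432. Nicotine embryos thus reached lower than any Control or Ethanol embryo, while all 3 groups, each spanning both replicate sets, overlapped over most of their range.

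Within numbers 1 to 6 the Nicotine group had the lowest median. Control ranged from 201 to 304 with a median of 248, and Ethanol from 188 to 297 with a median of 238. Nicotine ranged from 122 to 215 with a median of 172. In that set 1 Nicotine embryo, at 215, lay above the lowest Control and Ethanol embryos, and the other five lay below all of them. Within numbers 7 to 12, Control ranged from 358 to 461 with a median of 402, and Ethanol from 359 to 465 with a median of 400. Nicotine ranged from 307 to 432 with a median of 336 there, overlapping both.

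**Figure D1:**
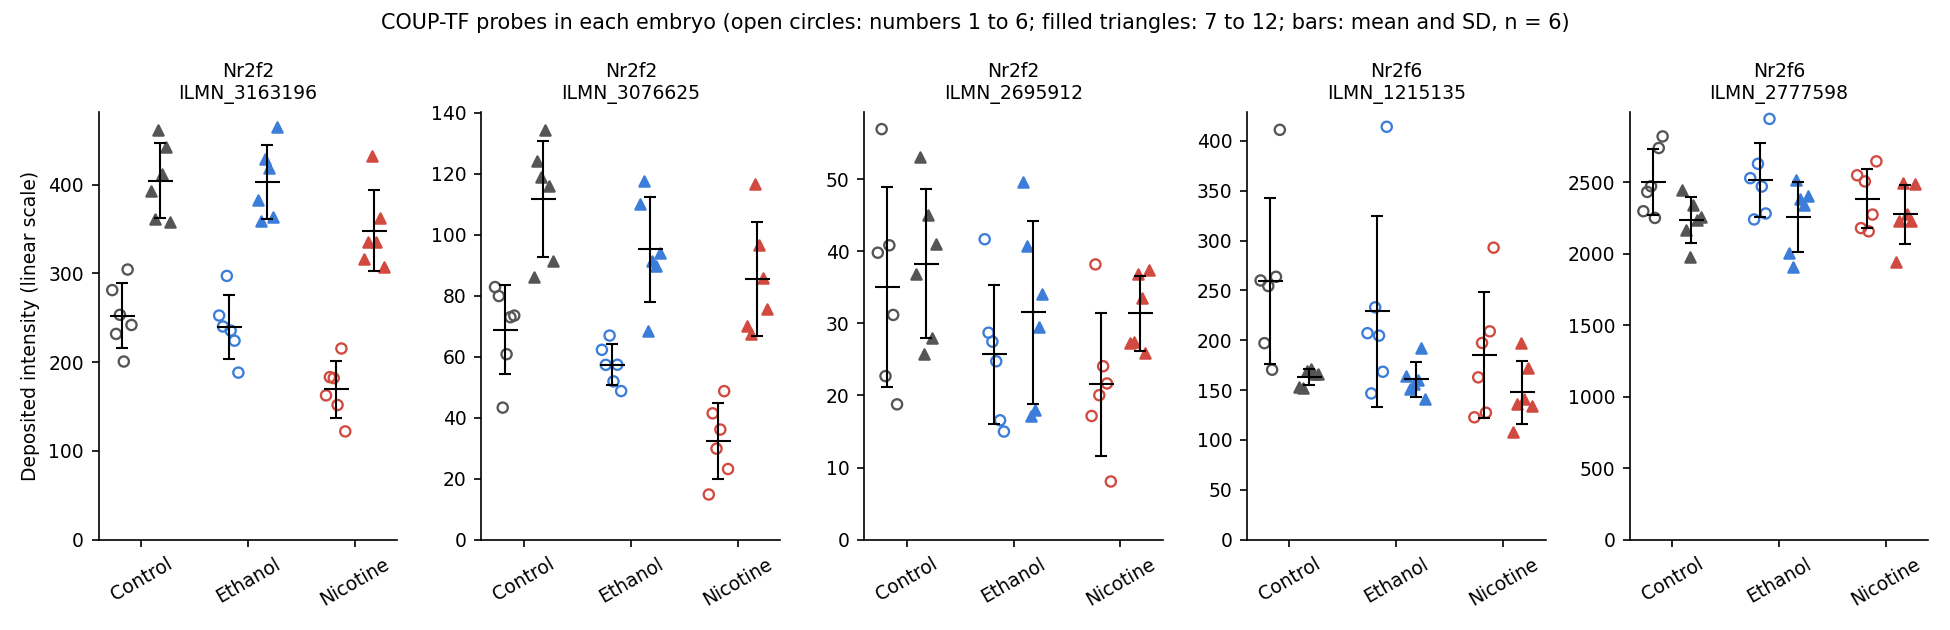
Deposited intensity (linear scale, each panel with its own axis from 0) of the 5 kept COUP-TF probes in every embryo, by group, with open circles for numbers 1 to 6, filled triangles for 7 to 12, and bars for the mean and SD of 6 embryos. For Nr2f2 probe ILMN_3163196 no embryo of numbers 1 to 6 reached the lowest of numbers 7 to 12, and the lowest embryo of each set, at 122 and 307, was a Nicotine one.

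As a mean over embryos, ILMN_3163196 was 328 ± 88.0 in Control, 321 ± 93.0 in Ethanol and 259 ± 101 in Nicotine (SD, n = 12 each). The nicotine minus control difference was -0.37 on the scale log2(intensity + 16), a ratio of 0.771, and -0.37 without number 3. The SE was 0.18 without pairing and 0.07 with replicate number as a block. The difference ran from -0.90 in pair 6 to -0.09 in pair 9. It averaged -0.54 ± 0.23 over pairs 1 to 6 and -0.21 ± 0.09 over pairs 7 to 12 (SD, n = 6 each), so it lay further below 0 in the first set. Against the Ethanol embryo of the same number, Nicotine was lower in 11 of 12 pairs, by a mean of -0.34.

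Another Nr2f2 probe, ILMN_3076625, had a Control range of 43.3 to 134 with a median of 84.4. Ethanol ranged from 48.7 to 118 with a median of 67.7, and Nicotine from 14.8 to 117 with a median of 58.2. Within numbers 1 to 6 every Nicotine embryo, at 14.8 to 48.7, lay below every Ethanol embryo, although the highest Nicotine and lowest Ethanol value were nearly equal. Nicotine minus control was -0.59 (a ratio of 0.666) over all pairs, -0.83 over pairs 1 to 6 and -0.34 over pairs 7 to 12, and -0.61 without number 3. The pairs ran from -1.68 in pair 1 to -0.03 in pair 9, all 12 below 0.

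The dimmest kept Nr2f2 probe, ILMN_2695912, ranged from 18.8 to 57.0 in Control, 14.99 to 49.6 in Ethanol and 8.07 to 38.2 in Nicotine, with medians of 38.3, 28.1 and 26.6. Nicotine minus control was -0.31, and 11 of 12 pairs were below 0. Pair 9 was the exception at 0.34. Pair 9 also had the highest nicotine difference of every other kept member probe, although for ILMN_3163196 pair 8 was nearly equal at -0.10.

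Over the whole array, 34 of 16927 kept probes (0.201%) were lower in Nicotine in all 12 pairs, and 1.18% were lower in at least 11. Among the members, 2 probes were lower in all 12 and 3 in at least 11, all of Nr2f2. The choice of the family rests on this count, so nothing is read from it.

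**Figure D2:**
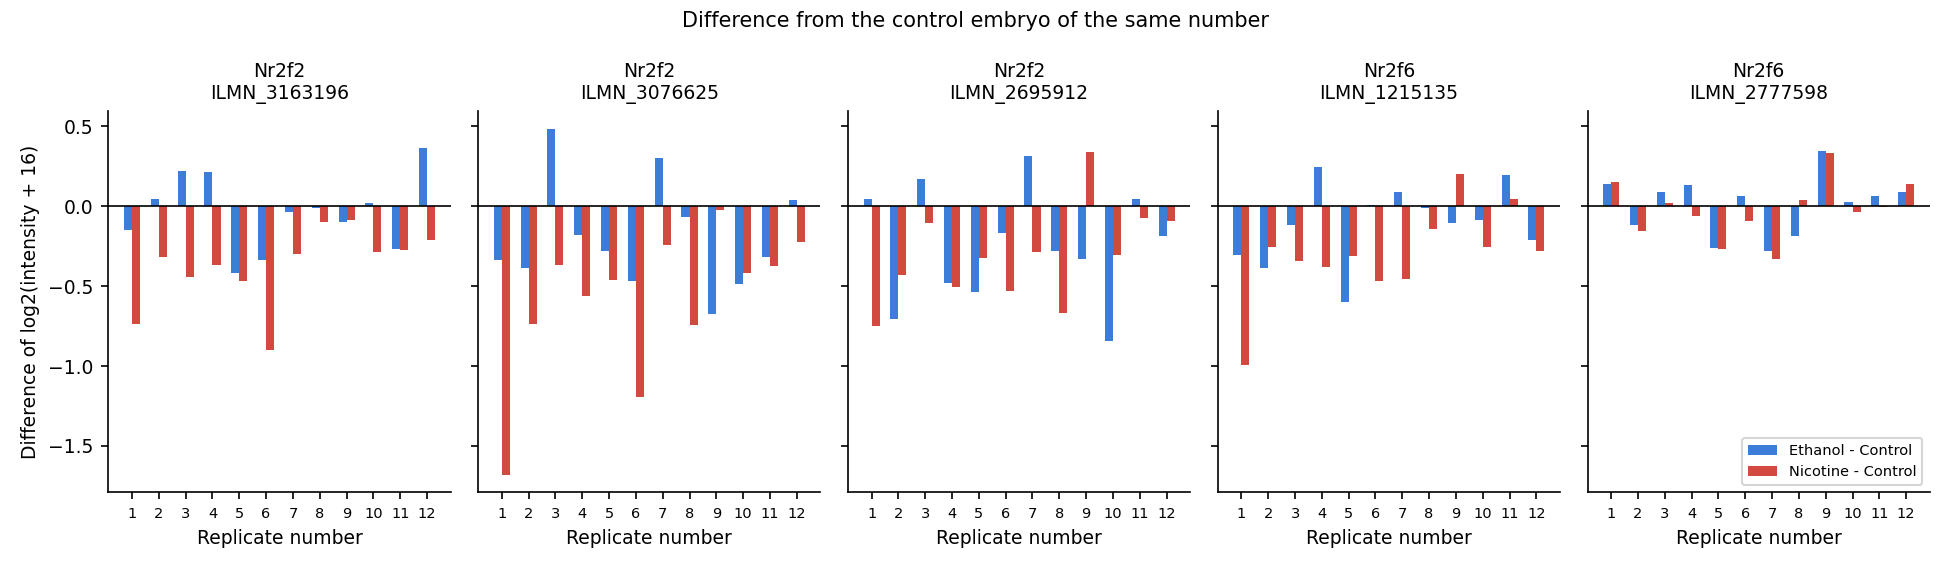
Difference of log2(intensity + 16) between each Ethanol or Nicotine embryo and the Control embryo of the same number, for the 5 kept COUP-TF probes. The nicotine bars of both brighter Nr2f2 probes are below 0 in all 12 pairs, the ethanol bars fall on both sides, and pair 9 has the highest nicotine value in each panel.

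Ethanol against control is the drink comparison that did not enter the choice, although it shares its Control embryos with the nicotine comparison. No Nr2f2 probe was called, which does not show that none changed. ILMN_3163196 differed by -0.04 (SE 0.18, 95% confidence interval -0.40 to 0.33, lower in 7 of 12 pairs), and with the replicate block the interval narrowed to -0.18 to 0.11. ILMN_3076625 differed by -0.20 (SE 0.19, interval -0.59 to 0.19, lower in 9 of 12 pairs). Without number 3 these differences were -0.06 and -0.26. The intervals leave room for a modest shift in either direction for ILMN_3163196 and mostly downward for ILMN_3076625.

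The dim probe ILMN_2695912 differed by -0.25 after ethanol (SE 0.137, interval -0.52 to 0.03, lower in 8 of 12 pairs). Its unadjusted p was 0.0804, and 0.0242 with the replicate block, with an adjusted p of 0.99 in the blocked limma fit. This probe passed the filter mostly through Control arrays, which can favour a value below control, so nothing is read from these p-values. Across the array, ethanol called 0 of 16927 probes (0%) with limma after Benjamini-Hochberg adjustment, 0 with the block as well, while 177 had an unadjusted p under 0.05 without the block and 784 with it. The 0 of 5 member probes called therefore equals the share over all probes.

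Nr2f6 read differently on its probes. The brighter probe, ILMN_2777598, had nearly the same distribution in each group, at 1975 to 2821 with a median of 2318 in Control, 1906 to 2943 with a median of 2392 in Ethanol, and 1942 to 2646 with a median of 2275 in Nicotine. The groups overlapped fully. Its ethanol difference was 0.01 (interval -0.12 to 0.14, lower in 4 of 12 pairs), which bounds a shift more tightly than for any other member. Its nicotine difference was -0.02, with 7 of 12 pairs lower.

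The other Nr2f6 probe, ILMN_1215135, ranged from 152 to 411 with a median of 171 in Control, 141 to 414 with a median of 166 in Ethanol, and 108 to 293 with a median of 152 in Nicotine. Its ethanol difference was -0.11 (interval -0.43 to 0.21, lower in 8 of 12 pairs, limma adjusted p of 1.0). Its nicotine difference was -0.30, with 10 of 12 pairs lower, -0.46 over pairs 1 to 6 and -0.15 over pairs 7 to 12. Over all kept probes 4.26% were lower in at least 10 of 12 nicotine pairs. The Nr2f6 probes thus disagreed on the size of the nicotine difference, and ILMN_1215135, like Nr2f2, lay further below 0 in the first set.

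Embryos numbered 6 stood out for Nr2f6. ILMN_1215135 read 411 in Control 6, 414 in Ethanol 6 and 293 in Nicotine 6, against highest values of 264, 233 and 209 among numbers 1 to 5 of those groups. ILMN_2777598 was also highest in number 6 of each group, at 2821, 2943 and 2646. No kept probe of Nr2f2 was highest in number 6 of any group. Its probe ILMN_3163196 read 188 in Ethanol 6 and 122 in Nicotine 6, below every embryo of numbers 1 to 5 of the same group, while Control 6 at 242 lay within that range. With ILMN_3076625 only Ethanol 6, at 48.7, lay below numbers 1 to 5, while Control 6 at 73.5 and Nicotine 6 at 23.2 lay within their ranges. The dim ILMN_2695912 was lowest in number 6 of every group. Without number 6 the nicotine difference of ILMN_3163196 was -0.33 and that of ILMN_1215135 was -0.29.

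Nr2f2 also differed between the replicate sets. With ILMN_3163196 the 18 embryos of numbers 1 to 6 ranged from 122 to 304 and the 18 of numbers 7 to 12 from 307 to 465, so the sets did not overlap. The difference of 7 to 12 minus 1 to 6, with group in the fit, was 0.79 (SE 0.0662, a ratio of 1.72, limma adjusted p of 7.04e-13). ILMN_3076625 was higher by 0.76 (SE 0.0917, adjusted p of 4.72e-09), and ILMN_2695912 differed by 0.22 (SE 0.105, adjusted p of 0.0663). These fits take same-number embryos as independent. A random block for replicate number gave limma adjusted p of 1.49e-10 for ILMN_3163196, 1.61e-06 for ILMN_3076625 and 0.132 for ILMN_2695912. The brighter Nr2f2 probes thus rose together in the second set while the dim one did not pass.

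Nr2f6 was lower in the second set. ILMN_1215135 fell by 0.41 (SE 0.108, limma adjusted p of 0.00114) and ILMN_2777598 by 0.13 (SE 0.0468, adjusted p of 0.0171). With replicate number as a random block the adjusted p was 0.0038 for ILMN_1215135 and 0.0536 for ILMN_2777598, which ends the call of the latter. Without number 6 the difference of ILMN_1215135 was -0.26 (adjusted p of 0.0041) and that of ILMN_2695912 of Nr2f2 was 0.12 (0.288). The call of ILMN_2777598 was also lost without number 6 (0.073) or without number 8 (0.0549), and ILMN_2695912 of Nr2f2 passed without number 1 (0.0397), 2 (0.0106) or 9 (0.0317). Without number 3 the same 4 probes passed, with ILMN_3163196 at 0.81, ILMN_3076625 at 0.74, ILMN_1215135 at -0.39 and ILMN_2777598 at -0.12.

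These calls sit in a very large background. Between the sets 64.8% of the kept probes were called, 38.6% higher and 26.2% lower in numbers 7 to 12, and 57.8% were called with the random block. A count of 4 of 5 members called is close to that share and is no result about the family. Non-overlap is rarer, since 9.68% of kept probes had sets that did not overlap and 2.15% did so with 7 to 12 higher, as ILMN_3163196 did. What the sets stand for is not given in the labels, and the division was itself seen in these data.

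**Figure D3:**
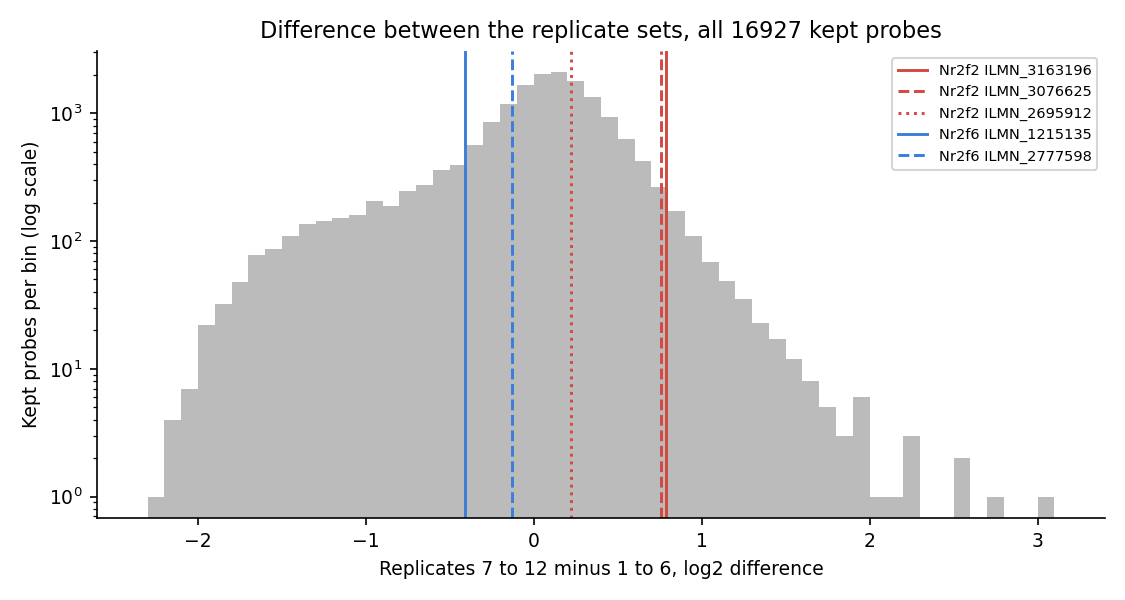
Number of kept probes (log scale) by log2 difference of replicates 7 to 12 minus 1 to 6, in bins of equal width, with vertical lines at the 5 COUP-TF probes. Nr2f2 probes ILMN_3163196 and ILMN_3076625 lie on the right flank at 0.79 and 0.76, and both Nr2f6 probes lie left of 0.

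The ethanol difference did not detectably depend on the set. The interaction ranged from -0.01 to 0.17 over the 5 member probes, with a limma adjusted p of 1.0 for each. For ILMN_3163196 it was 0.06 with an interval of -0.25 to 0.38, so a moderate dependence could not be seen at this number of arrays. Over all probes 0 passed (0%), with 389 at an unadjusted p under 0.05. The corresponding nicotine values of the members are untested.

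After the mean of each group in each set was removed, the Nr2f2 probes ILMN_3163196 and ILMN_3076625 correlated at 0.43 over the 36 embryos, at 0.51 within numbers 1 to 6 and 0.28 within 7 to 12. ILMN_3076625 correlated at 0.52 with ILMN_2695912, whereas ILMN_3163196 and ILMN_2695912 correlated at only 0.10. The Nr2f6 probes correlated with each other at 0.58, at 0.76 in the first set and 0.32 in the second. Between the genes the correlations with ILMN_1215135 and ILMN_2777598 differed by Nr2f2 probe, at -0.00 and 0.04 for ILMN_3163196, 0.13 and -0.30 for ILMN_3076625, and -0.42 and -0.40 for ILMN_2695912. The points of these correlations share their arrays and, between numbers, whatever the numbers stand for.

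The named genes whose pattern was most like that of Nr2f2, by Pearson correlation with ILMN_3163196 on the same residuals over 36 embryos, were Sox4 at 0.79, Snrpa at 0.70, Rprm at 0.69, Eif4ebp2 at 0.69 and Timm29 at 0.68. Sox4 encodes a transcription factor of progenitor cells, Snrpa a protein of the U1 small nuclear ribonucleoprotein and Eif4ebp2 a translation repressor. Sox4 held 0.80 within each set. Its nicotine difference was -0.18 (SE 0.0874, limma adjusted p of 0.767), and another Sox4 probe differed by -0.01, so its probes disagree. The lowest correlations were with Eif2s3y, a Y-linked translation initiation gene, at -0.68, Pmp22 at -0.67, Herc4 at -0.67, Eif4a2 at -0.66 and Slc25a16 at -0.65. Eif4a2 was at -0.88 in numbers 1 to 6 and at -0.03 in numbers 7 to 12, so it was unlike Nr2f2 in one set only.

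For Nr2f6, by ILMN_2777598, the most like genes were C87436 and Smim7 at 0.73 and 9530068E07Rik, Senp3 and Strn4 at 0.71. Senp3 removes SUMO from proteins and Strn4 is a scaffold of a phosphatase complex. The least like were Swsap1 at -0.72 and Pin4, Gsta4, Fam133b and Rbm39 at -0.69. These lists depend on the measure. With Spearman's correlation 4 of the 10 Nr2f2 genes and 5 of the 10 Nr2f6 genes were kept, and 2 of 10 of each when only group means were removed.

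The partners of COUP-TFs were read next. Of 12 listed cofactors 7 were measured, and 0 passed in limma after ethanol or nicotine, with or without the block. Over the array nicotine called 0.00591% of probes without the block and 1.15% with it. Their median difference was -0.06 after ethanol and -0.14 after nicotine, against 0.00 over all kept probes in both, and the list mean was lower in 11 of 12 nicotine pairs. Bcl11a and Bcl11b, zinc finger repressors first described as COUP-TF interacting proteins, had the lowest unadjusted p. After nicotine Bcl11a differed by -0.80 (SE 0.233, adjusted p of 0.273, and 0.0645 with the block) and by -0.56 on another probe. Bcl11b differed by -0.72 (SE 0.19, adjusted p of 0.216, and 0.0613 with the block). After ethanol the values were -0.21 for Bcl11a and -0.46 for Bcl11b. Zfpm2, or FOG2, a cofactor that binds Nr2f2 in the heart, differed by 0.06 after ethanol and -0.14 after nicotine.

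Of 14 receptors of the retinoid, thyroid and orphan Nr2 families 7 were measured and 0 passed in either comparison. Their medians were 0.03 after ethanol and -0.00 after nicotine. After nicotine Nr2e1, or Tlx, a receptor of neural progenitors, differed by 0.28 (SE 0.195) and Rarg, a retinoic acid receptor, by 0.18 (SE 0.173). After ethanol Hnf4a, a receptor of endoderm, differed by 0.23 (SE 0.275) and Nr2c1 by 0.14 (SE 0.20). The shared binding partners Rxra and Rxrb lay within 0.05 of control in both comparisons.

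No gene reported as a COUP-TF target was called. Of 18 listed 12 were measured, 0 passed in either comparison, and the medians were 0.05 after ethanol and -0.04 after nicotine, with 8 and 6 of 12 above control. Hey1, a Notch effector of arterial endothelium, differed by -0.11 after nicotine (SE 0.0778, lower in 10 of 12 pairs) and its relative Hey2, which Nr2f2 is known to repress in veins, by 0.22 (SE 0.157). Nrp1, a VEGF and semaphorin receptor, differed by 0.17 after ethanol (SE 0.131), and its other probes gave 0.19 and -0.12. Afp, a fetal serum protein, differed by 0.54 after ethanol with an SE of 0.591.

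Signals that act on COUP-TF genes were likewise uncalled. Sonic hedgehog and retinoic acid are known to raise Nr2f2 transcription in other settings. Of 17 genes of these pathways 12 were measured and 0 passed in either comparison, with medians of 0.08 after ethanol and 0.02 after nicotine. Shh itself differed by -0.70 after nicotine (SE 0.517, lower in 10 of 12 pairs, and -0.40 on another probe). The hedgehog receptor gene Ptch1, a response gene of the pathway, differed by -0.04. Aldh1a2, which makes retinoic acid in the trunk, differed by 0.32 after ethanol (SE 0.162), and Aldh1a3, its counterpart in head epithelia, by -0.36 (SE 0.182). The retinoic acid binding protein gene Crabp2 differed by 0.12 after nicotine (SE 0.129).

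**Figure D4:**
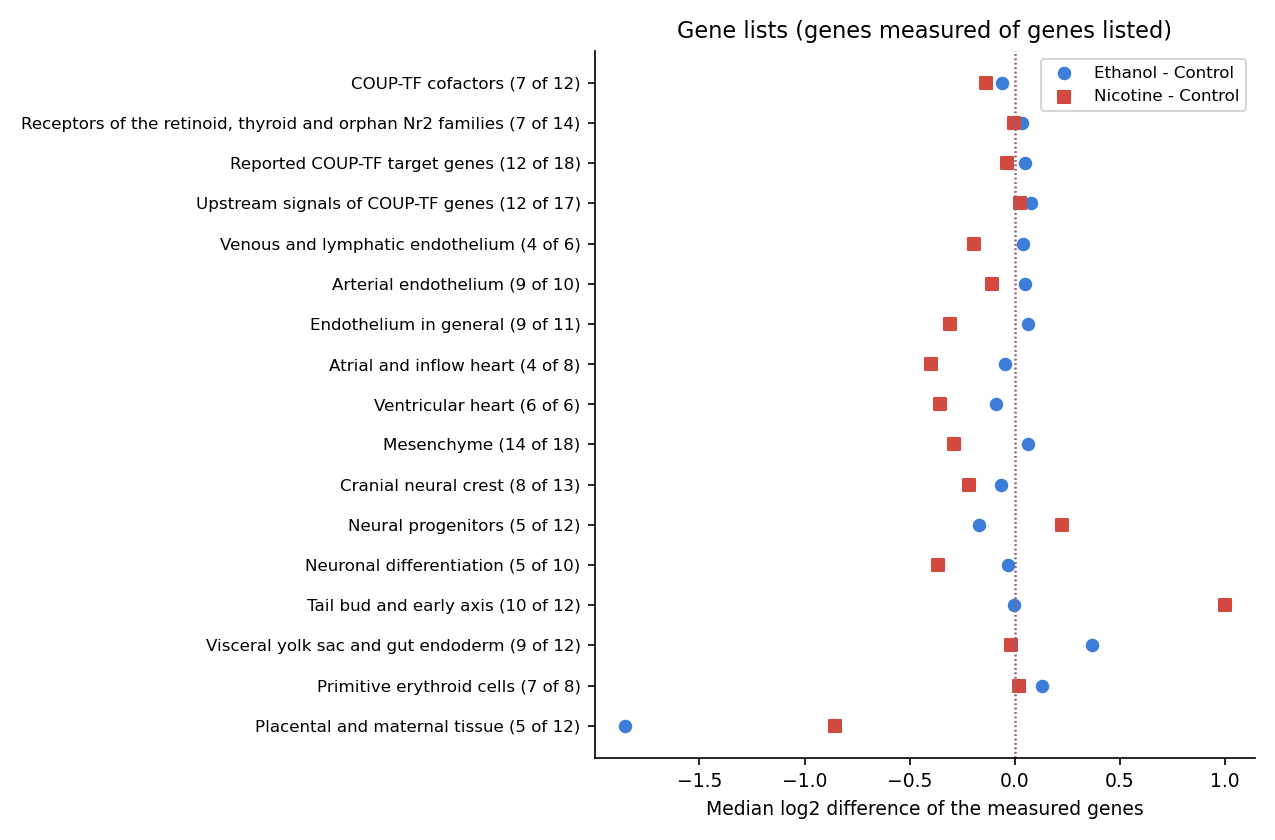
Median log2 difference from Control of the measured genes in each of 17 gene lists, after ethanol (circles) and nicotine (squares), with dotted lines at the median of all kept probes. The COUP-TF partner, target and signal lists lie within 0.14 of 0, the mesenchyme and general endothelium lists lie at -0.29 and -0.31 after nicotine, and the tail bud list lies at 1.0.

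The cell types in which Nr2f2 is known to be made were looked at through their other markers. Mesenchyme markers also lay below control under nicotine, and their part in the Nr2f2 difference was not tested. Pair by pair the values were alike in some pairs and apart in others. In pair 1 their list mean stood at -0.02 and Nr2f2 (ILMN_3163196) at -0.73, and in pair 8 they stood at -0.49 and -0.10. In pair 10 they stood at -0.29 and -0.28, and in pair 9 at 0.05 and -0.09. Of 18 listed 14 were measured, 0 of 14 lay above control, the median was -0.29 and the list mean was lower in 11 of 12 pairs. Their summed intensity ranged from 6731 to 9566 in Control, 7794 to 10421 in Ethanol and 4202 to 9173 in Nicotine. None passed without the block. With the block, where 0.479% of kept probes were called lower under nicotine, 1 of 14 fell, Twist2, a mesenchymal transcription factor, at -0.38 (limma adjusted p of 0.0345 with the block and 0.284 without). The call of Twist2 was lost in the blocked fit without number 2, 6, 7, 8, 10 or 12. Over the array that fit called 1 probe without number 2 and 0 without number 6 or 7. Under ethanol 11 of 14 lay above control, with a median of 0.06.

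Endothelial markers were similar. Of 11 general ones 9 were measured, 0 of 9 lay above control after nicotine, and their median was -0.31, with the list mean lower in 10 of 12 pairs. The summed intensity ranged from 2505 to 5234 in Control, 2286 to 5310 in Ethanol and 1402 to 5417 in Nicotine, and Kdr and Erg were not measured. Esam, an adhesion molecule of endothelium, differed by -0.45 (SE 0.185, limma adjusted p of 0.593) and Robo4, an endothelial guidance receptor, by -0.62 (SE 0.27, adjusted p of 0.669). The 4 measured of 6 venous and lymphatic markers had a median of -0.19, including Emcn at -0.47 (SE 0.226) and Ephb4, the venous ephrin receptor, at -0.11 (SE 0.0624). The 9 measured of 10 arterial markers had a median of -0.11. None of these endothelial genes passed, with or without the block, and the part of these markers in the Nr2f2 values was not tested.

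The 4 measured of 8 atrial markers had a nicotine median of -0.40, yet only 5 of 12 pairs were lower, and the 6 ventricular markers had a median of -0.36 with 6 of 12 pairs lower. In pair 3 the atrial list mean differed by -6.56 and the ventricular one by -4.27, the lowest of the 12 pairs. Both medians include that pair. The list mean was higher in 7 atrial and 6 ventricular pairs, by up to 0.96 and 0.69. No general fall of heart markers is therefore read from the medians. Nr2f2 in pair 3 differed by -0.44. The part of heart markers in the Nr2f2 values was not tested.

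Cranial neural crest markers, with 8 of 13 measured, had a nicotine median of -0.22 and a list mean lower in 11 of 12 pairs. They did not all go the same way, since 3 of 8 lay above control. With the block, where 0.479% of kept probes were called lower, 2 of 8 fell. Neither call held in the blocked fit without number 2, 6 or 7, and that of Dlx1 was also lost without 8, 10 or 12. Dlx1, a homeobox gene of the branchial arches and forebrain, differed by -0.79 (adjusted p of 0.0334 with the block, 0.216 without, lower in 12 of 12 pairs). Tfap2b, a crest transcription factor, differed by -0.48 (adjusted p of 0.0264 with the block, 0.216 without), and its other probes gave -0.05, -0.43 and -0.27. Neural progenitor markers had a nicotine median of 0.22 and neuronal ones -0.37, each with 5 genes measured and 0 called.

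Tail bud and early axis markers went the other way under nicotine. Of 12 listed 10 were measured, all 10 lay above control with a median of 1.0, and the list mean was higher in 11 of 12 pairs. The summed intensity ranged from 1103 to 4599 in Control and from 1819 to 8367 in Nicotine, with T and Msgn1 not measured. With the block, where 0.668% of kept probes were called higher, 8 of 10 rose, among them Hoxc10 at 1.5 (limma adjusted p of 0.0215), Cdx2 at 1.32 (0.0334), Tbx6 at 1.31 (0.0273) and Evx1 at 1.18 (0.044), and 0 did without the block. In the blocked fit 0 rose without number 2, 6 or 7, 1 without number 10, 2 without 3, 4 without 11 or 12 and 5 without 8. These are regulators of posterior body formation. In pair 9, where Nr2f2 (ILMN_3163196) differed least, the tail bud list mean differed by 0.08 and the mesenchyme list mean by 0.05. In pair 8 Nr2f2 was nearly the same, at -0.10, while these means were 0.80 and -0.49. Pair 6, where Nr2f2 was lowest at -0.90, had means of 1.07 and -0.25. In pair 5 the tail bud mean was below 0, at -0.35, while Nr2f2 was at -0.47. The part of these markers in the Nr2f2 values was not tested.

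**Figure D5:**
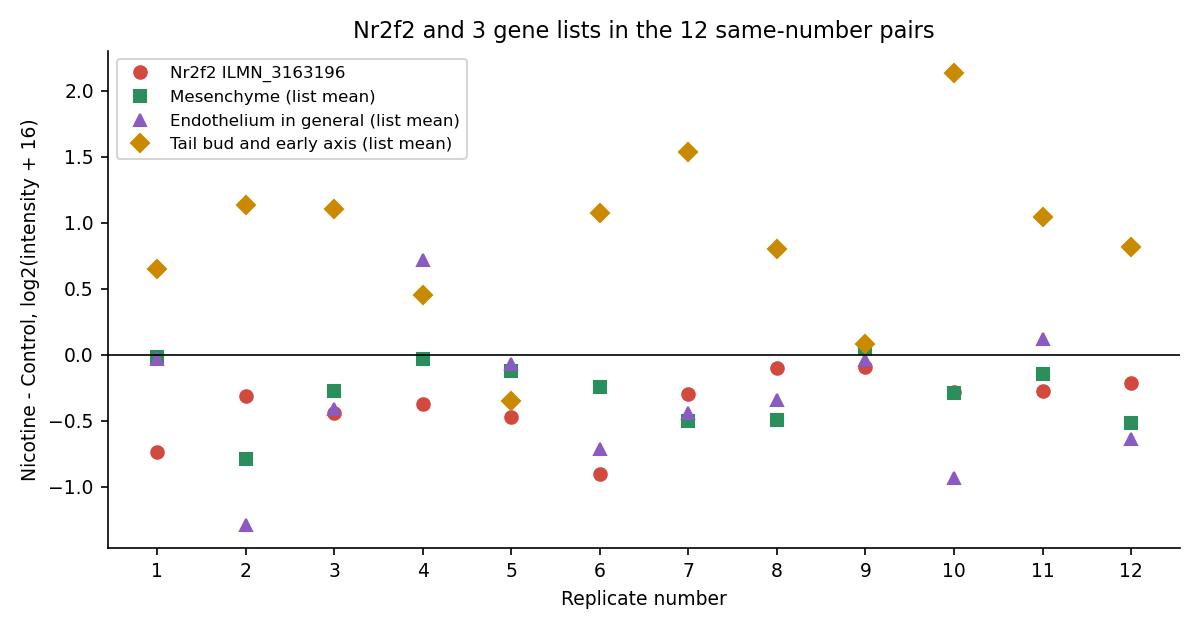
Nicotine minus Control in each of the 12 same-number pairs, on the log2(intensity + 16) scale, for Nr2f2 probe ILMN_3163196 and for the mean of 3 marker lists. Nr2f2 is below 0 in every pair, and the tail bud mean is above 0 in all pairs but number 5. All 4 values are close to 0 in pair 9, while in pair 8 Nr2f2 is at -0.10 and the tail bud mean at 0.80.

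Markers of tissue outside the embryo proper were uneven. The 5 measured of 12 placental and maternal markers had medians of -1.85 after ethanol and -0.86 after nicotine, Control 3 included, with 0 called. Their summed intensity was 42547 in Control 3, 4565 in Control 12 and 3547 in Control 8, and 657 to 4314 in Nicotine embryos. The 9 measured visceral yolk sac and gut endoderm markers had a summed intensity of 285 to 24908 over single embryos and medians of 0.37 and -0.02. The 7 measured primitive erythroid markers had medians of 0.13 and 0.02. Leaving out number 3, which holds the highest placental sum, left the Nr2f2 nicotine difference of ILMN_3163196 at -0.37. That value could hardly move, since pair 3 at -0.44 was 1 of 12 pairs that were all below 0. The part of placental and maternal tissue in the Nr2f2 values was not tested.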

How the data were processed

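Total RNA of 36 whole embryos was labelled with SA-Cy3 and hybridised to Illumina bead arrays, per the labels. The authors deposited 1 linear intensity per probe and embryo, and GenomeStudio 1.9.0 is named in the submitters' processing notes. How background was handled is not given in the sources used here, nor is the normalization. Array medians were 10.7 to 10.8, and precision is limited by the number of arrays. A further 72 columns of signals match no sample label and were not used.

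From the deposited intensity, log2(intensity + 16) was taken, which understates changes of dim probes. Probes with an intensity of 32 on 12 arrays were kept. Group means of all 36 arrays were fitted with limma 3.58.1 in R 4.3.3 (33 residual degrees of freedom), two-sided, with Benjamini-Hochberg adjustment over 16927 probes and a threshold of 0.05. Alternative fits had replicate number or replicate set as a block, other pseudocounts and filters, or numbers left out. Only the ethanol fit without a block was tested on simulated data, which had independent noise on each array and no replicate sets or pairs. The labels do not say that replicate numbers pair the embryos. The deviations of same-number embryos correlated above 0.1 in 36 of 36 pairs. Such embryos always share a replicate set, so that count cannot show pairing by number. The mean correlation was 0.589, against 0.474 for other numbers of the same set and -0.489 for the other set.

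Gene symbols come from the platform annotation, updated through RefSeq gene identifiers, and in a list each gene is represented by its brightest kept probe. All member probes are named. From each list the genes past the threshold (up to 4) and otherwise the 2 of smallest unadjusted p in a comparison are named, and the 5 most and 5 least like genes of each member. Rxra, Rxrb, Zfpm2 and Ptch1 fall outside that rule and were named after their values were seen. Members and lists were chosen with earlier results of these data known.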

Additional observations from a re-analysis of the deposited data

How the results depend on the processing

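Ethanol called 0 probes over the array and 0 members under all 34 alternatives. The nicotine count over the array was 1 and became 194 with the replicate block, 3 with the set block, and 0 without the filter on dim probes, with only the groups compared, within replicates 1 to 6 and within replicates 7 to 12. It was 0 to 1 without one replicate number. With the replicate block and one number left out, an alternative chosen after seeing the data, it was 0 without number 6 or 7, 1 without 2, 75 without 10, 131 without 3, 146 without 12, 147 without 11, 152 without 8, 194 without 1, 204 without 4, 231 without 5 and 256 without 9, and the calls of Twist2, Dlx1, Tfap2b and the tail bud genes were lost without number 2, 6 or 7. The cause was not tested. The replicate block changed no ethanol call. Nicotine values of the members kept their sign for all Nr2f2 probes and ILMN_1215135. The family was chosen on this comparison, so nothing is read from that. ILMN_3163196 and ILMN_3076625 were lower in 12 of 12 pairs, so leaving out numbers could not change their sign. ILMN_2777598 of Nr2f6 ranged from -0.07 to 0.02. The set difference called 3 to 5 members without one number, 4 with other pseudocounts and 3 with the random replicate block, added after seeing the data. The background correction could not be varied, and dim probes such as ILMN_2695912 limit what can be seen. The leading genes most like a member were unstable. Without the 2 farthest arrays 5 of 10 were kept for Nr2f2 and 3 of 10 for Nr2f6.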
